A study of Arabidopsis thaliana with 16 samples.

Results

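The regions described here are the 1185 ChIP-seq peaks that were called in ethylene-treated Col-0 seedlings and that overlapped no peak of the air-treated Col-0 library. They were chosen from the authors' peak lists as ethylene peaks with not a single base pair in common with an air peak on the 5 nuclear chromosomes. They made up 1185 of the 1510 Col-0 ethylene peaks, or 78.5% (95% exact Clopper-Pearson interval 76.3 to 80.5%), and 1185 of 3378 peaks over all 6 ChIP libraries. The other 325 ethylene peaks, called shared peaks here, overlapped an air peak. Of the 841 air peaks, 436 were met by no ethylene peak and are called air-only.

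EIN2 is a membrane protein of the ethylene pathway whose carboxyl-terminal part, EIN2C, is released and reaches the nucleus once the hormone is perceived. EIN3 and its relative EIL1 are the transcription factors that switch on ethylene-responsive genes, and EBF1 and EBF2 are the F-box proteins that send them to degradation. In dark-grown seedlings ethylene is known for a tightened apical hook, a short hypocotyl and a short root.

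The study followed a chimeric protein that, by its name, joins EIN2C to the DNA binding domain of EIN3 (EIN2C-EIN3DB). Whole seedlings were grown in darkness for 3 days at 24 °C and were given ethylene (10 ppm) or air for 4 hours. ChIP-seq with an EIN2 antibody covered EIN2C-EIN3DB in wild-type Col-0 (1 ethylene and 1 air library) and in the double mutant background ein3-1eil-1 (2 ethylene and 2 air libraries), with 4 inputs without antibody. RNA-seq covered 3 lines in ein3-1eil-1, all in air with 2 libraries each: EIN2C-EIN3DB, the same fusion with the K245N substitution (EIN2C-EIN3DBK245N), and EIN2S645A. Each line was set by the authors against Col; the labels give neither the treatment of Col, nor the promoter of the transgenes, nor the number of independent lines, and no label says that replicates were separate cultures. The EIN2 antibody could also recover the plant's own EIN2, so signal from the fusion and from native EIN2 cannot be told apart.

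Several labels disagree with each other. In Col-0, both the ChIP and the input with air in their titles carry an agent label of ethylene, and the Col-0 ethylene input carries the mutant genotype. The S645A line is named with EIN2 in the titles and with EIN2C in the series design, and its genotype label gives another position. Both ein3-1eil-1 air replicates name the same peak list in their descriptions, and the second list was assigned by its header. Treatments here follow the titles, so "air" in Col-0 means the library titled air. In EIN2C-EIN3DB, the RNA of EIN3 and EIL1 was lower than in Col by log2 -2.06 and -2.86, per the authors' deposited table. The table for EIN2S645A gave -3.97 and -2.93, and the authors' deposited table for EIN2C-EIN3DBK245N gave -2.65 for EIL1 and did not list EIN3. The fusions carry EIN3 sequence, so these values check EIL1 better than EIN3. EIN2 was lower by log2 -1.44 in the authors' deposited table of EIN2C-EIN3DB and was not listed in the other 2, so no line named for an EIN2 transgene was listed with higher EIN2 RNA than Col.

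The ethylene-only peaks were mostly narrow and weak beside the shared peaks, with a small tail of wide, strong sites. Their median width was 130 bp (range 73 to 3296 bp), against 227 bp for the shared peaks and 110 bp for the air-only peaks. Median fold enrichment, the ratio of pileup at the summit to local input that the authors' peak caller gave, was 3.01 (range 1.98 to 9.44) in ethylene-only peaks and 3.29 (range 1.58 to 13.6) in shared peaks. In air-only peaks it was 3.11, slightly above the ethylene-only value. Median pileup, the number of stacked tags at the summit, was 17 in ethylene-only, 27 in shared and 14 in air-only peaks. The median -log10 p was 5.18, 9.04 and 4.87 in the same order. These values come from the list that chose the peaks and are given as a description.

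The tail of strong sites was thin. Of the ethylene-only peaks, 47 (3.97%) were wider than 500 bp, against 91 (28%) of the shared peaks. A -log10 q of at least 5 was reached by 125 ethylene-only peaks (10.5%) and by 183 shared peaks (56.3%), and a fold enrichment of at least 5 by 15 and 55. Even so, 30 of the 100 ethylene peaks with the highest fold enrichment and 27 of the 100 widest were ethylene-only. In all, the ethylene-only peaks covered 218045 bp and the shared peaks 184235 bp.

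**Figure D1:**
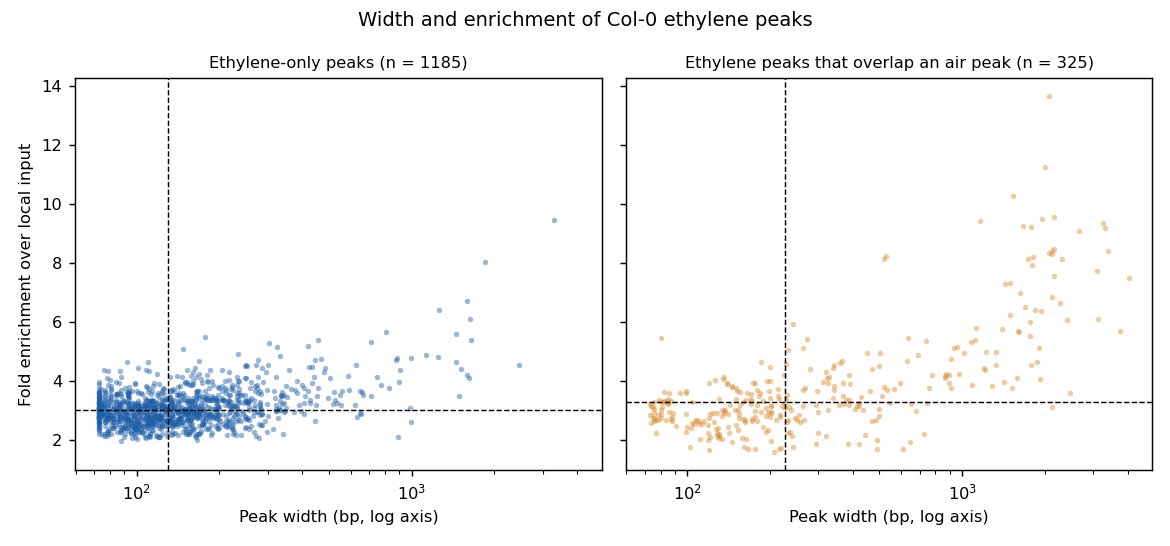
Each point is a Col-0 ethylene peak, with its width in bp on a log axis and its fold enrichment over local input; ethylene-only peaks (n = 1185) are on the left and shared peaks (n = 325) on the right, and dashed lines mark the medians of 130 bp and 3.01, and of 227 bp and 3.29. Most ethylene-only peaks lie in a dense cloud of narrow peaks, and a few reach widths above 1000 bp.

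Membership rests on 1 ethylene and 1 air library, so it has no replicate check. The ethylene library kept 4713282 tags after removal of duplicates and the air library 3743192, and the share of redundant tags was 0.56 and 0.61. A site called in ethylene at the authors' p of 0.001 and not called in air is not shown to lack signal in air, and the part of depth in the count was not tested. At the edge of the caller's threshold, 3 ethylene-only peaks had a -log10 p of 3.01, with a fold enrichment of 2.12: they lay at AT4G31490 and CYP83B1, at ARF6, and at MAP3KA and GLY3. Just outside an air peak, ethylene-only peaks at APX1, APA1 and AT5G22920 stopped 9, 12 and 13 bases short of one. Just inside the other class, shared peaks at XYL4, NIA2 and AT2G15880 overlapped an air peak by 2, 7 and 8 bp.

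Most ethylene-only peaks were not near misses of that kind. The median distance to the nearest air peak was 28154 bases; 769 of the 1185 (64.9%) lay more than 10000 bases away and 196 (16.5%) within 1000 bases. They did tend to lie beside each other: 456 (38.5%) had another ethylene-only peak within 1000 bases, so that joining such neighbours left 899 separate runs. Chromosomes 1 to 5 held 297, 178, 218, 182 and 310 of them.

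Genes lay at nearly all of these sites, as they did at the other kinds of Col-0 peak. Of the 1185 peaks, 852 (71.9%, interval 69.2 to 74.4%) overlapped an annotated gene and a further 236 (19.9%) lay within 1000 bp of either end of one, which leaves 97 (8.19%) at neither. Shared peaks overlapped a gene in 80.6% of cases and air-only peaks in 78.4%, both more often than ethylene-only peaks. With the flank, a gene was in reach of 91.8% of ethylene-only, 90.5% of shared and 94.7% of air-only peaks. The share of the genome in reach of a gene was not computed. A protein-coding gene was in reach of 89% of ethylene-only, 80.3% of shared and 89.9% of air-only peaks. In all, 1284 genes, of which 1109 protein-coding, were in reach of an ethylene-only peak. The 1109 are 4.04% of the 27432 protein-coding genes on these chromosomes. Most of them, 917, had no air peak in reach at all, whereas 192 (17.3%) also had one. A single ethylene-only peak was found at 859 of the genes, 2 at 151, and 3 or more at 99. Sites in a flank can lie near 2 genes, and 533 of the peaks (45%) had 2 or more genes in reach.

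The site with the highest fold enrichment was at THA1, a threonine aldolase gene. This peak, at chr1:2744231-2747526 (TAIR10), was 3296 bp wide with a fold enrichment of 9.44 and a -log10 p of 30, and the nearest air peak was 8155 bases away. It also lay within the flanks of PKDM7D, a JmjC-domain histone demethylase gene, and CJD1. The second, with a fold enrichment of 8.03 over 1845 bp, covered AT2G39980 and AT2G39975. The third, 6.71 over 1589 bp, lay at AT5G62280, with AT5G62290 in its flank, and 313 bases from an air peak. AT5G44260 followed at 6.39 with no air peak within 241390 bases. Next came CA2, a carbonic anhydrase gene (6.09), the pair AT1G06750 and AT1G06760 with the noncoding AT1G04503 (5.66), and ACO4 (5.58). ACO4 encodes an ACC oxidase, which makes ethylene in the last step of its synthesis. The eighth site (5.47, chr3:3122063-3122239) had no gene in reach. RBCS3B, a small subunit gene of Rubisco with AT5G38400 in the flank, and BMY3, a beta-amylase gene beside TLP11, closed the set at 5.37 each.

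The RNA of the protein-coding genes in reach of these strongest sites went both ways, with the higher calls at flank genes only. In the authors' deposited table of EIN2C-EIN3DB, AT5G62280 was lower than in Col by log2 -3.09, BMY3 by -1.73, RBCS3B by -1.57, AT5G44260 by -1.26 and PKDM7D by -1.02. The same authors' deposited table had CJD1 and AT5G62290 higher, by 1.27 and 1.93. Both had the peak in the flank, as had PKDM7D. THA1 was in the authors' deposited table of EIN2S645A only, at log2 -2.19 and a low level of 0.669 FPKM in the line. CA2 was also listed in EIN2S645A only, at log2 -1.55, and AT2G39980 in EIN2C-EIN3DBK245N only, at -1.19, in the authors' deposited tables. ACO4 was in none of the tables, although its peak was among the strongest.

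Over all 1109 protein-coding genes at ethylene-only peaks, lower RNA than in Col was called more often than higher RNA. The authors' deposited tables keep a gene only if its ratio to Col is 2 or more either way, it reaches 1 FPKM and its q-value stays below 0.05. They give 1 value a line, so no spread between libraries can be shown and calls are the authors'. In EIN2C-EIN3DB, 227 of the 1109 genes were lower (20.5%, interval 18.1 to 23%), against 9.7% of all protein-coding genes. Higher RNA was called for 91 (8.21%), against 9.92% of all. In EIN2C-EIN3DBK245N, 151 were lower (13.6%, against 6.33% of all) and 91 higher (8.21%, against 6.41%). In EIN2S645A, 259 were lower (23.4%, against 13.9% of all) and 181 higher (16.3%, against 11.8%). At a fold of at least 4, 59 genes (5.32%, against 1.67% of all) were lower and 25 (2.25%, against 2.88%) higher in EIN2C-EIN3DB. In EIN2C-EIN3DBK245N 44 (3.97%, against 1.27%) were lower and 19 (1.71%, against 1.59%) higher, and in EIN2S645A 79 (7.12%, against 4.18%) and 72 (6.49%, against 5.22%). No table listed 539 of the genes (48.6%). Seedlings were sequenced in bulk, so fewer cells of a type and less RNA per cell cannot be told apart. The tables share Col, and their calls are therefore not independent of each other.

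Among genes that were listed at all, the share called lower was also above that of all listed genes, though not for longer loci in EIN2S645A. In EIN2C-EIN3DB it was 71.4% of listed genes at ethylene-only peaks and 49.4% of all listed protein-coding genes. In EIN2C-EIN3DBK245N the shares were 62.4 and 49.7%, and in EIN2S645A 58.9 and 54%. Expression level and gene length moved with membership. The listed genes at ethylene-only peaks had a median of 21.9, 23.9 and 27.2 FPKM in the 3 lines by the authors' deposited tables, against 12.5, 11.7 and 12.3 FPKM for all listed genes. Over all protein-coding genes at ethylene-only peaks, listed or not, the median locus length was 2308 bp, against 2078 bp for all protein-coding genes. For loci of up to 2000 bp the EIN2C-EIN3DB share lower was 17.6% at ethylene-only peaks and 5.06% over all, and for longer loci 22.3 and 13.9%. EIN2S645A differed by length: in short loci, genes at ethylene-only peaks were more often higher (22.9%) than lower (14.4%), as were all short genes (15.4 and 4.25%). Among listed loci of up to 2000 bp in that line, 38.5% at ethylene-only peaks were lower, against 21.6% over all. For longer listed loci in that line the shares lower were 70.6 and 72.4%. The part of level in these shares was not tested.

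In EIN2C-EIN3DB, the share of lower genes at the other kinds of Col-0 peak lay between that at ethylene-only peaks and that of all genes. At shared peaks (337 genes), 19.6% were lower and 11.3% higher, and at air-only peaks (563 genes) 15.3 and 12.8%. The interval for genes at shared peaks, 15.5 to 24.2%, contains the 20.5% of genes at ethylene-only peaks. In EIN2C-EIN3DBK245N, 11.6% of genes at shared peaks were lower and 12.5% higher, and at air-only peaks 7.64 and 12.1%. In EIN2S645A the shares were 21.4% lower and 17.5% higher at shared peaks, and 17.2 and 21.3% at air-only peaks. These classes share 124 genes between ethylene-only and shared peaks alone, intervals cover counting error only, and genes are not replicates, so no test was made.

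**Figure D2:**
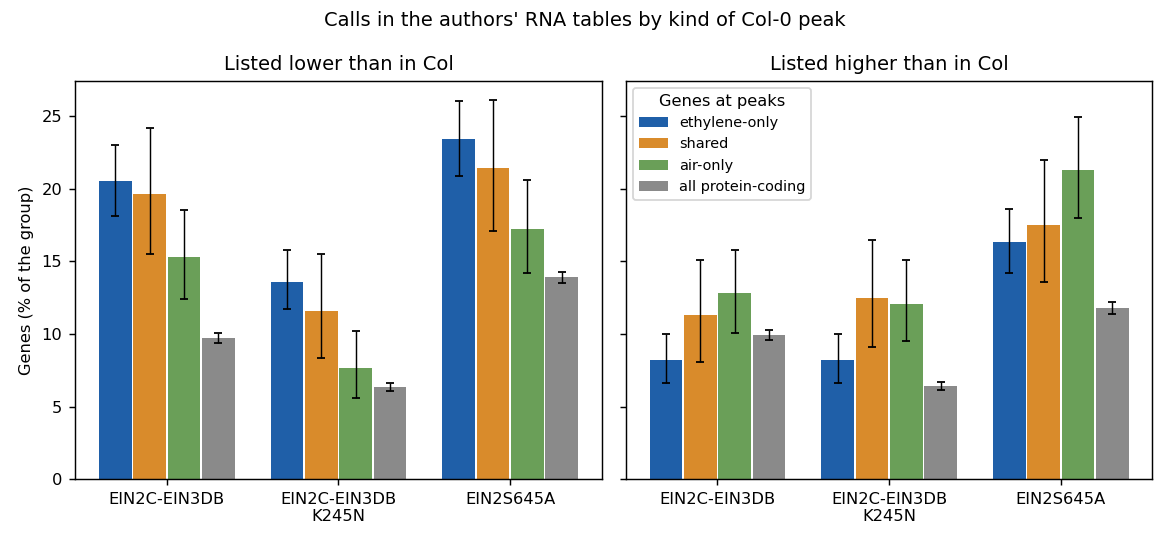
Bars give the percentage of protein-coding genes that the authors' deposited tables list as lower (left) or higher (right) than in Col, for genes at ethylene-only (n = 1109), shared (n = 337) and air-only peaks (n = 563) and for all protein-coding genes (n = 27432), with exact 95% intervals of counting error. In EIN2C-EIN3DB the lower share is 20.5% at ethylene-only peaks and 9.7% over all genes, while the higher shares are 8.21 and 9.92%.

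In EIN2C-EIN3DB the share of lower genes was larger where more ethylene-only peaks lay at a gene, and the other lines did not show the same steps. In EIN2C-EIN3DB, 18.5% of genes with 1 such peak were lower, 25.8% of those with 2 and 29.3% of those with 3 or more (intervals 16 to 21.3%, 19.1 to 33.6% and 20.6 to 39.3%, which overlap). The shares were 11.9, 19.9 and 19.2% in EIN2C-EIN3DBK245N and 22.9, 20.5 and 31.3% in EIN2S645A. Over all protein-coding genes in EIN2C-EIN3DB, 5.06% of loci up to 2000 bp and 13.9% of longer ones were lower. Groups by number of peaks were not matched for locus length, and the part of length was not tested. With the peaks cut into 4 bins of about equal size by fold enrichment, the EIN2C-EIN3DB share was, low to high, 20.3, 23.2, 17.1 and 26.9%. In the same line, genes with a peak inside them were lower in 23.3% of cases, and genes with peaks only in the flank in 16.7%. Leaving out the 192 genes that also had an air peak in reach gave 19.2% lower (interval 16.7 to 21.9%) and 8.4% higher. The 192 genes themselves were lower in 26.6% of cases (interval 20.5 to 33.4%) and higher in 7.29%.

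Known EIN3 targets and ethylene-induced genes were the list with the largest share at ethylene-only peaks among the 15 lists examined. Of its 29 genes, 10 (34.5%) had an ethylene-only peak, against 4.04% of all protein-coding genes; these were CTR1, EBF1, EBF2, EDF1, EDF3, EDF4, HLS1, ARGOS, ARL and PORB. Shared peaks lay at 8 of the 29 (27.6%), against 1.23% of all protein-coding genes, and CTR1, EBF1, EBF2, EDF1, EDF4 and HLS1 had both kinds. All 10 were lower in EIN2C-EIN3DB, where 20.5% of genes at ethylene-only peaks and 9.7% of all genes were. In EIN2C-EIN3DBK245N 9 were lower (13.6% of genes at ethylene-only peaks, 6.33% of all), and in EIN2S645A 6 (23.4 and 13.9%). None was higher in any table. Over the whole list of 29, the same tables had 16, 16 and 11 lower and 1, 0 and 0 higher. The list was drawn up with earlier results of these data known, so its direction is not independent evidence.

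HLS1, HOOKLESS1, an N-acetyltransferase-like gene needed for the apical hook, carried 5 ethylene-only peaks from inside the gene to just past its higher-coordinate end (chr4:17658894-17661024). Their fold enrichments were 3.53, 3.03, 3.51, 3.06 and 3.41, and their pileups 17 to 19 tags. A sixth ethylene peak in the middle of the gene (4.12) overlapped its one air peak (2.93), so HLS1 also had a site in air. In the authors' deposited tables HLS1 was lower by log2 -2.88 in EIN2C-EIN3DB (3.7 FPKM in the line), -3.57 in EIN2C-EIN3DBK245N (1.72 FPKM) and -2.54 in EIN2S645A (3.62 FPKM).

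ARGOS and its homologue ARL, which promote organ growth, had wide ethylene-only peaks and no air peak within 12889 and 15704 bases. The ARL peak at chr2:18237264-18238713 was 1450 bp wide with a fold enrichment of 4.64, and a second one upstream in coordinate order had 2.09. The ARGOS peak at chr3:22129948-22130834 was 887 bp wide at 4.77, and its second one 73 bp wide at 2.69. By the authors' deposited tables ARL was lower by log2 -4.64, -4.59 and -3.53 in EIN2C-EIN3DB, EIN2C-EIN3DBK245N and EIN2S645A. ARGOS was lower by -3.56 and -2.10 in the EIN2C-EIN3DB and EIN2C-EIN3DBK245N lines in the authors' deposited tables and was not listed in EIN2S645A.

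PORB encodes a protochlorophyllide oxidoreductase of chlorophyll synthesis. Its ethylene-only peaks of 628 and 1244 bp (fold enrichment 4.55 and 4.81) together covered most of the gene, and the nearest air peak was 23415 bases away. Its RNA was lower by log2 -3.29, -2.05 and -1.91 in the EIN2C-EIN3DB, EIN2C-EIN3DBK245N and EIN2S645A lines in the authors' deposited tables, and still at 133, 237 and 268 FPKM. Among the EDF genes, which encode AP2/B3 transcription factors induced by ethylene, EDF3 had an ethylene-only peak within the gene (2.92) and no air peak within 284613 bases. EDF4 had 2 ethylene-only peaks (3.26 and 3.24) with an air peak 374 bases away, and EDF1 had 1 in the flank (3.36). Both also had a shared peak: 1428 bp at 7.28 over EDF1, and 518 bp at 3.8 inside EDF4. The authors' deposited table of EIN2C-EIN3DB gave log2 -2.99 for EDF3, -1.61 for EDF4 and -1.17 for EDF1.

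At both F-box genes, as at EDF1, the ethylene-only peak was a side site. EBF2 had an ethylene-only peak of 2.29 beyond its higher-coordinate end, whereas a shared peak of 3096 bp with a fold enrichment of 7.74 covered most of the gene. EBF1 likewise had an ethylene-only peak of 3.16 at chr2:10851729-10851889 and a shared peak of 3131 bp at 6.11 over the gene, which overlapped 5 air peaks of 79 to 187 bp. Both side sites lay more than 1000 bp past the higher-coordinate gene end given in the RNA tables and were placed by the longer locus of the reference annotation. The strongest sites of EBF1 and EBF2 are therefore not among the ethylene-only peaks, although the ethylene peak there was far wider than the air peaks it overlapped.

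**Figure D3:**
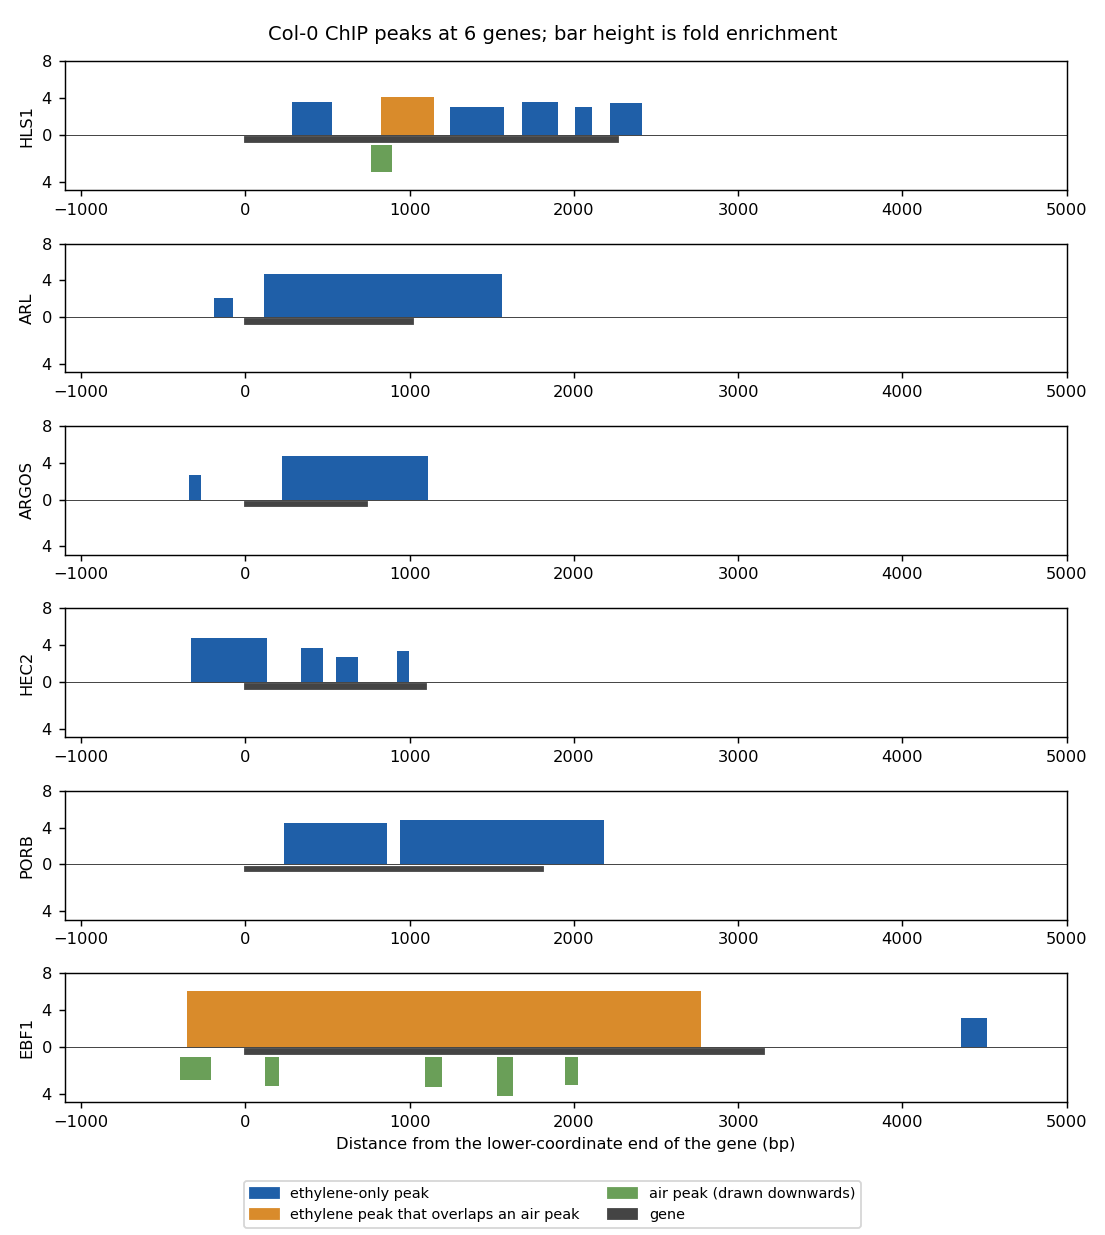
Col-0 peaks at 6 genes, drawn by distance in bp from the lower-coordinate end of the gene in the RNA tables, with the fold enrichment over local input as the bar height; ethylene peaks point up (ethylene-only or shared), air peaks point down, and the dark bar is the gene. ARL, ARGOS, HEC2 and PORB hold ethylene-only peaks alone, HLS1 holds 5 of them around 1 shared peak, and EBF1 holds a wide shared peak over 5 air peaks.

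The genes of ethylene perception and signalling overlapped that list in CTR1, EBF1 and EBF2 and added EIN2 and EIL1, so 5 of 19 (26.3%) had an ethylene-only peak. Shared peaks lay at 5 of the 19 (26.3%) as well. Over all protein-coding genes, the shares were 4.04% at ethylene-only and 1.23% at shared peaks. CTR1, the kinase that holds the pathway off in air, had 1 narrow flank peak (73 bp, 3.01) and a shared peak in the other flank (3.94), and EIL1 had 1 flank peak of 2.33. EIN2 itself had 3 narrow ethylene-only peaks in its flanks (2.87, 2.21 and 2.22) and 3 shared peaks inside the gene, the widest 1012 bp at 4.93. Implied input, the background level that follows from pileup and fold enrichment, was 5.26, 11.7 and 9.36 at the EIN2 flank peaks, against a median of 4.82 for ethylene-only peaks. The lines carry a second copy of EIN2 sequence, and tags from the transgene and the gene cannot be told apart. CTR1, EIN2, EIL1, EBF1 and EBF2 were all lower in the authors' deposited table of EIN2C-EIN3DB, EIN2 by log2 -1.44 and CTR1 by -1.26. Over the whole list of 19, 9 were lower and 0 higher in that line. There, 20.5% of genes at ethylene-only peaks and 9.7% of all protein-coding genes were lower.

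Of the genes of ethylene synthesis and of the ERF family, transcription factors that act below EIN3, 10.5 and 11.1% had an ethylene-only peak. The share over all protein-coding genes was 4.04%. ACS8 and ACO4 were the 2 of 19 synthesis genes with an ethylene-only peak. ACS8, an ACC synthase gene, had a flank peak of 4.43 and was higher by log2 2.99 in EIN2C-EIN3DBK245N and 3.28 in EIN2S645A in the authors' deposited tables. Over all 19 synthesis genes, the tables had 8, 5 and 8 lower and 1 higher each in EIN2C-EIN3DB, EIN2C-EIN3DBK245N and EIN2S645A, with ACS8 the opposite of the more common direction. ERF4, ERF12 and ERF13 were 3 of 27 ERF genes, a list with 1, 2 and 2 lower and 2, 1 and 4 higher in the same tables. ERF4, a repressor of the family, had peaks of 4.29 and 3.16 and was higher by log2 1.58 in EIN2C-EIN3DBK245N and 2.88 in EIN2S645A in the authors' deposited tables. ERF12 and ERF13 were listed in none.

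Of 28 light signalling genes, 6 (21.4%) had an ethylene-only peak. The photoreceptor genes PHYA, CRY1 and CRY2 were lower in the authors' deposited table of EIN2C-EIN3DB by log2 -1.34, -1.21 and -1.07. PIF5, a growth-promoting bHLH factor of darkness, and PHOT1, a blue light receptor, were higher in EIN2C-EIN3DBK245N by log2 1.44 and by 1.53 per the authors' deposited table, and HFR1 was not listed. Over all 28 light signalling genes, 17 were lower and 1 higher in EIN2C-EIN3DB, 10 and 3 in EIN2C-EIN3DBK245N and 16 and 2 in EIN2S645A. PIF5 and PHOT1 thus went against the more common direction of the list. Over all 40 auxin genes, 15 were lower and 3 higher in EIN2C-EIN3DB, 3 and 5 in EIN2C-EIN3DBK245N and 8 and 7 in EIN2S645A. Of the auxin genes, 7 (17.5%) had an ethylene-only peak: IAA2, ARF6, PIN3, AUX1, LAX1, TIR1 and YUC8. IAA2, with 3 ethylene-only peaks up to 4.67, and ARF6 were lower in the authors' deposited table of EIN2C-EIN3DB by log2 -1.33 and -1.37. LAX1, an auxin influx carrier, was higher by 1.35, 1.91 and 1.68 in the EIN2C-EIN3DB, EIN2C-EIN3DBK245N and EIN2S645A lines in the authors' deposited tables. The auxin transport and receptor genes PIN3, AUX1 and TIR1 had peaks inside the gene (2.87, 3.62 and 3.3) and no listed change.

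**Figure D4:**
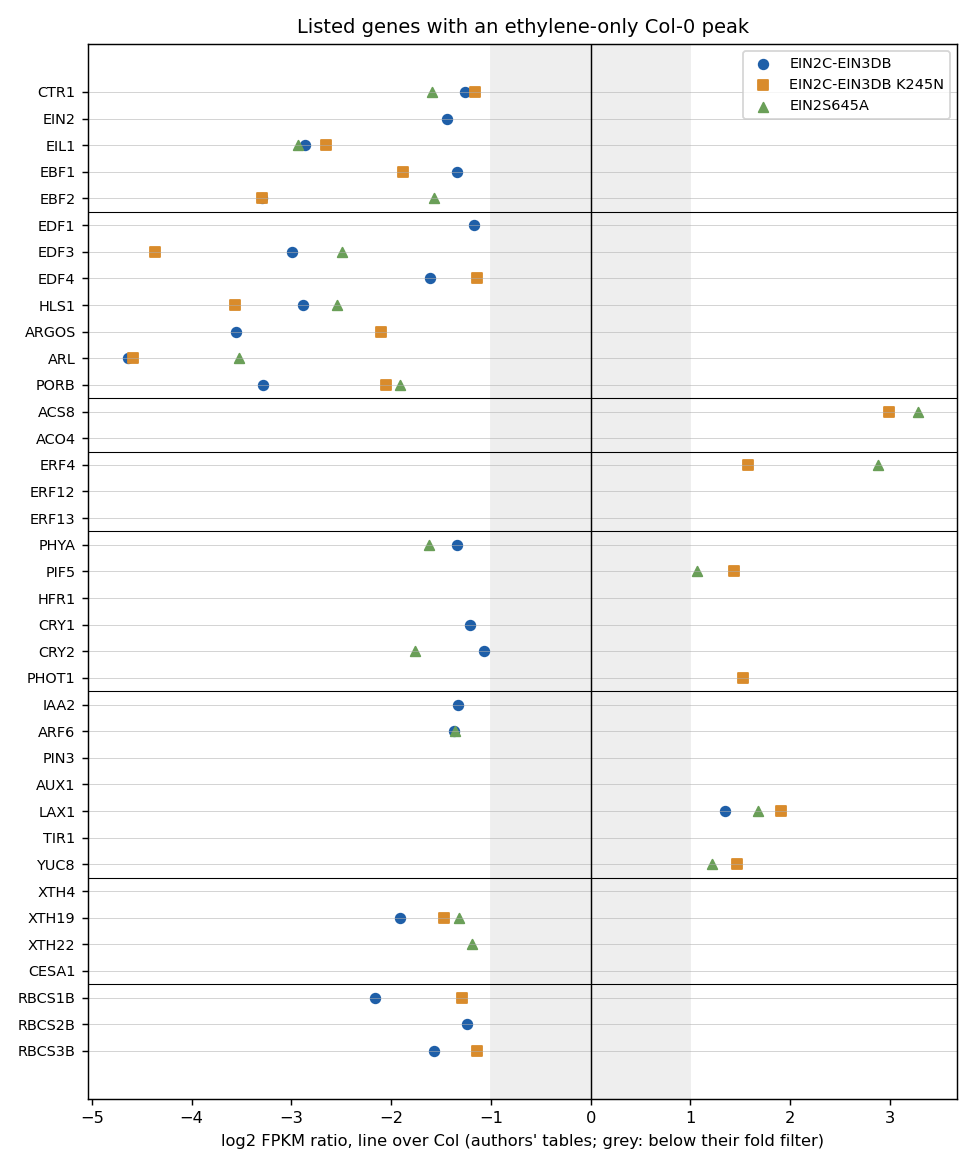
Points give the log2 FPKM ratio of each line over Col from the authors' deposited tables, for genes of 8 lists that have an ethylene-only Col-0 peak; horizontal lines part the lists, the grey band marks folds below the tables' filter, and a gene with no point was not listed. All listed points of the ethylene signalling and EIN3 target genes lie below 0, from -1.14 to -4.64, while ACS8, ERF4, LAX1 and YUC8 lie above 0 wherever listed.

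Each of the other lists had between 0 and 4 genes at ethylene-only peaks. Cell wall loosening had 4 of 20, among them XTH19, a xyloglucan endotransglucosylase gene that was lower by log2 -1.91, -1.47 and -1.32 in the EIN2C-EIN3DB, EIN2C-EIN3DBK245N and EIN2S645A lines in the authors' deposited tables. Over the 20, 5 were lower and 6 higher in EIN2C-EIN3DB, 5 and 3 in EIN2C-EIN3DBK245N and 5 and 3 in EIN2S645A. Jasmonate had 4 of 26 (MYC2, MYC3, JAZ1 and JAZ6), of which MYC3 alone was listed, at log2 -2.74 in the authors' deposited table of EIN2S645A. Over those 26, the EIN2C-EIN3DB, EIN2C-EIN3DBK245N and EIN2S645A tables had 0, 0 and 2 lower and 3, 4 and 4 higher, so MYC3 went against the more common direction. Photosynthesis had 3 of 26 (RBCS1B, RBCS2B and RBCS3B), or 11.5%, against 4.04% of all protein-coding genes. Shared peaks lay at 5 of the 26 (19.2%), against 1.23% of all protein-coding genes. Air-only peaks lay at 15 of the 26, against 563 of all 27432 protein-coding genes. Over the 26, 4 were lower and 13 higher in EIN2C-EIN3DB, 3 and 14 in EIN2C-EIN3DBK245N and 1 and 18 in EIN2S645A, so higher was the more common direction over the list. In the authors' deposited table of EIN2C-EIN3DB those Rubisco genes were lower by log2 -2.16, -1.24 and -1.57, and since they are near-identical neighbours, reads may have been split among them and their values are uncertain. The clock (LUX, 1 of 16), histone acetylation (HAC1, 1 of 18), heat shock (HSP81-3, 1 of 15) and gibberellin and brassinosteroid lists (RGA, 1 of 19) had 1 gene each, and cold and abscisic acid response had 0 of 17. Abundant housekeeping genes had 2 of 16, UBQ3 and UBQ14 (12.5%), which is also above the 4.04% of all genes.

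Genes at an ethylene-only peak that were listed in the same direction in each table included strong changes both ways. The lowest by mean log2 ratio were AZI1, a lipid-transfer-like protein of systemic immunity, AT4G11610, AT3G51410, HEC2, ARL, GRF7, AT5G49690 and AT5G26150. AZI1 was lower by log2 -2.53, -5.92 and -5.42 in the EIN2C-EIN3DB, EIN2C-EIN3DBK245N and EIN2S645A lines in the authors' deposited tables, with a single peak of 3.6 in the gene. HEC2, a bHLH transcription factor gene, held 4 ethylene-only peaks (4.76, 3.67, 2.67 and 3.38) with no air peak within 7990 bases. Its authors' deposited table values were log2 -4.24 in EIN2C-EIN3DB, -4.96 in EIN2C-EIN3DBK245N and -3.81 in EIN2S645A. The AT3G51410 peak lay outside the gene limits of the RNA tables though inside the reference locus, and its level in the EIN2C-EIN3DB line was only 0.488 FPKM in the authors' deposited table.

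The highest were COR413IM1, a cold-regulated protein of the chloroplast inner envelope, AT1G06090, AT3G11120, BT1, ZIF1, TPI, AT5G03460 and AT3G19030. COR413IM1 was higher by log2 3.81, 4.15 and 4.31 in the EIN2C-EIN3DB, EIN2C-EIN3DBK245N and EIN2S645A lines in the authors' deposited tables, and its flank peak lay 40 bases from an air peak. ZIF1, a vacuolar zinc tolerance transporter, was higher by 2.58, 2.77 and 2.92, and TPI, triose phosphate isomerase, by 2.39, 2.07 and 3.55 in the authors' deposited tables. By the loci of the reference annotation, the ethylene-only peak was in the flank only at 5 of these 8 genes (COR413IM1, AT1G06090, AT3G11120, ZIF1 and AT5G03460), and at 1 of the 8 lowest (AT5G49690). By the gene limits of the RNA tables, the peaks at GRF7 and AT3G51410, of the lowest, also lay outside the gene. The AT1G06090 peak lay more than 1000 bp from its gene by those limits.

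Genes with the most ethylene-only peaks, named after their values were seen, included genes of primary metabolism and ion transport. HA2, a plasma membrane proton pump gene, had 8 such peaks (fold enrichment 2.48 to 3.68), ATMS1, a methionine synthase gene, had 7, and IVD, FDH, GLT1 and APA1 had 6 each. HA2, ATMS1, IVD and GLT1 were in no table. FDH, formate dehydrogenase, was lower by log2 -1.76, -1.31 and -1.61 in the EIN2C-EIN3DB, EIN2C-EIN3DBK245N and EIN2S645A lines in the authors' deposited tables, and APA1, an aspartic protease gene, was higher by 1.06 in EIN2C-EIN3DBK245N and 1.29 in EIN2S645A. FAR1 (AT5G22500), a fatty acyl-CoA reductase gene, had 5 peaks up to 5.15 and authors' deposited table values of -3.19, -2.80 and -3.28 in the EIN2C-EIN3DB, EIN2C-EIN3DBK245N and EIN2S645A lines. HA2, ATMS1 and APA1 had an air peak within 40, 16 and 12 bases of an ethylene-only one, whereas at IVD, FDH and GLT1 the nearest was 93016, 15522 and 148606 bases away.

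The ein3-1eil-1 libraries, which took no part in choosing the peaks, show whether the same sites were called without EIN3 and EIL1. Almost none were. Ethylene replicates 1 and 2 had a peak at 8 (0.675%, interval 0.292 to 1.33%) and 9 (0.759%, 0.348 to 1.44%) of the 1185 ethylene-only sites. Air replicates 1 and 2 had one at 14 (1.18%, 0.647 to 1.97%) and 18 (1.52%, 0.903 to 2.39%). Both ethylene libraries were below both air libraries, with means of 0.717 ± 0.0597% in ethylene and 1.35 ± 0.239% in air (SD, n = 2 each). The difference of -0.633 percentage points had an exact two-sided permutation p of 0.33, the smallest that 2 against 2 libraries allow. Among the 125 ethylene-only peaks with a -log10 q of at least 5 the order turned, with 7.2% met in either ethylene library and 4% in either air library. The shared peaks were met far more often: 81 (24.9%) and 86 (26.5%) of 325 in ethylene and 83 (25.5%) and 87 (26.8%) in air. By the rule, shared peaks had already been called in both Col-0 libraries. Peaks are not replicates, and the difference between the classes was not tested.

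**Figure D5:**
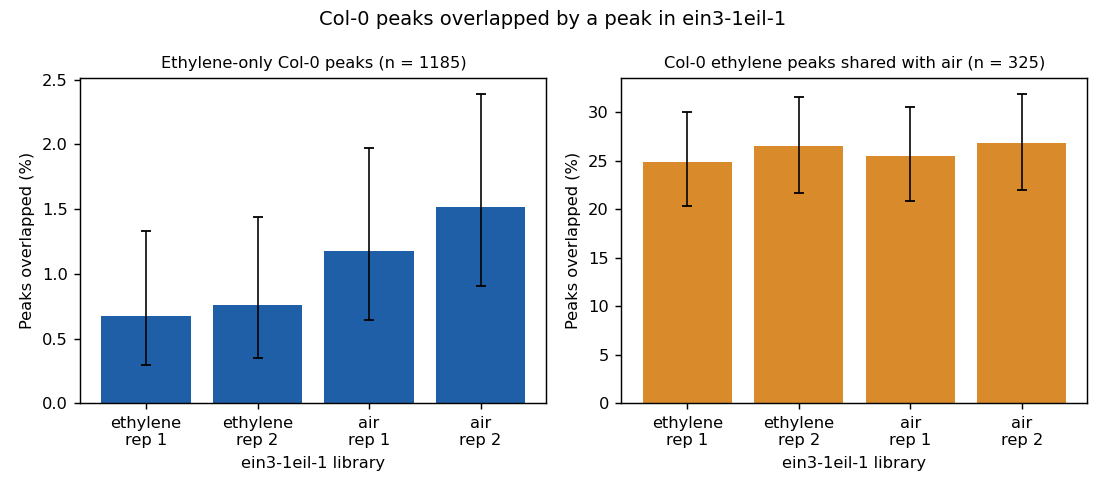
Bars give the percentage of ethylene-only (left, n = 1185) and shared Col-0 ethylene peaks (right, n = 325) that a peak of each ein3-1eil-1 library overlapped, with exact 95% intervals of counting error; the vertical axes differ. Ethylene-only peaks stay at 0.675 to 1.52% and shared peaks at 24.9 to 26.8%.

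The ein3-1eil-1 libraries kept 6205149 and 6325081 tags in ethylene and 10515608 and 10073282 in air, more than the 4713282 of Col-0 in ethylene. They held fewer peaks, 245 and 275 in ethylene and 252 and 255 in air, against 1510 in Col-0. Shared peaks were also stronger than ethylene-only peaks. Implied input was higher in shared peaks too, with a median of 6.43 and a highest value of 85.4. In ethylene-only peaks the median was 4.82 and the highest value 29.2. The parts of depth, peak strength and implied input in these shares were not tested. Over all 4 libraries, 33 ethylene-only sites (2.78%) were met at least once, 6 were met in both ethylene libraries, 6 in both air libraries and 1 in all 4. The other 1152 (97.2%) were met in none. None of the sites at HLS1, ARL, ARGOS, PORB or HEC2 was among the 33, which was also true of 97.2% of all ethylene-only sites. The 33 included the ERF4 flank peak (4.29), 1 peak at HFR1 (2.34) and the UBQ3 peak (3.23). Implied input was 3 or more times the median of the ethylene-only peaks at 21.2% of the 33, against 0.434% of the 1152.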

How the data were processed

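ChIP peaks were called by the authors for each library against input with MACS2 2.1.0.20150603 (threshold p 0.001, genome size 119000000 bp), per the file headers. For a peak, the deposited lists hold the pileup signal in tags, the fold enrichment as a ratio over local input, the -log10 p and the -log10 q. Comments in those files say q was not calculated, and the column was read as named. A fragment length of 73 to 79 bp, per the file headers, makes narrow widths approximate. RNA values are FPKM that the authors computed per line from pooled replicates; the submitters' processing notes name Cuffdiff 2.2.1 and TAIR10. The deposited tables hold log2 ratios, p-values and q-values, filtered by the authors on fold (2 or more), level (1 FPKM or more) and q-value (below 0.05). The EIN2C-EIN3DBK245N ratios were turned to line over Col. BWA is also named in the submitters' processing notes, with no role given. The 3 columns of Col values belong to no sample of the series and were not used here. Tables were scaled one by one, so levels are not compared between lines. RNA depth is unknown.

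Overlaps and counts were computed with Python 3.11.15, pandas 2.3.3 and NumPy 2.4.6, and exact intervals (Clopper-Pearson, 95%, counting error only) and the exact permutation test with SciPy 1.17.1; figures were drawn with matplotlib 3.10.9. The overlap routine was tested on simulated data. Genes in reach of a peak are those it overlapped or came within 1000 bp of at either end. Loci were read from a TAIR10.1 gene table, with no strand or exons, which held 98.1, 97.6 and 98.6% of the identifiers in the 3 RNA tables, and none of its coordinates is printed. Printed coordinates are those of the authors' files (TAIR10). Implied input was worked back from both peak measures as (pileup + 1) / (fold enrichment) - 1.

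The 15 gene lists had 337 matched entries; 8 symbols were not matched and 18 with several matches were placed by hand. The members, the lists and the rule for named genes were chosen with earlier results of these data known. Named genes are those at the 10 ethylene-only peaks of highest fold enrichment, list genes at an ethylene-only peak, the 8 highest and 8 lowest by mean log2 ratio among genes listed in the same direction in each table, genes listed in opposite directions, and those at the edges of the rule. The genes with the most ethylene-only peaks and the KCS genes were named outside it, after their values were seen. Peak measures of Col-0 chose the members and were not tested. RNA calls could not be tested again, since no values per library were at hand. Promoter motifs were not analysed here.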

Additional observations from a re-analysis of the deposited data

Results flagged for a closer look

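At 4 genes with an ethylene-only peak, the authors' deposited tables give opposite directions in different lines, all set against Col. The differences between lines were not tested, since there is 1 value per line. AT5G24570 was lower than in Col by log2 -1.02 in EIN2C-EIN3DB and -1.78 in EIN2C-EIN3DBK245N and higher by 1.56 in EIN2S645A, in the authors' deposited tables. P1R3 was at -1.52 in EIN2C-EIN3DB and 2.09 in EIN2S645A in the authors' deposited tables. GER3, a germin-like protein gene, was at -1.04 in EIN2C-EIN3DB and 1.02 in EIN2S645A in the authors' deposited tables, both close to the fold filter of 2. AT3G25600 was at -1.33 in EIN2C-EIN3DBK245N and 1.42 in EIN2S645A in the authors' deposited tables. The EIN2S645A value was the positive one at each of these genes. The peaks were narrow (75 to 95 bp), with fold enrichments of 2.71 to 3.47, in the flank at 3 of the genes and inside AT3G25600, and GER3 alone had an air peak in reach.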

How the results depend on the processing

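Of 70 values under other settings, 43 kept within the error or spread of the value reported and 27 moved; more genes at ethylene-only peaks were lower than higher in 9 of 9 settings in each line. The 1185 peaks became 125 at a -log10 q of at least 5 and 15 at a fold enrichment of at least 5, and at that q the median fold enrichment of 3.01 became 4.12 and the median width of 130 bp became 252 bp, a move within the wide spread between peaks. At a fold of at least 4, 5.32% of genes were lower and 2.25% higher in EIN2C-EIN3DB, 3.97 and 1.71% in EIN2C-EIN3DBK245N and 7.12 and 6.49% in EIN2S645A, by construction fewer than at a fold of 2. At the 149 genes of the 125 peaks with a -log10 q of at least 5, the shares were 29.5 and 5.37% in EIN2C-EIN3DB, 18.1 and 4.7% in EIN2C-EIN3DBK245N, and 26.2 and 12.8% in EIN2S645A. With peaks inside genes only, the lower shares were 23.3% in EIN2C-EIN3DB and 26.3% in EIN2S645A, and with the nearest gene only, 24.1% in EIN2C-EIN3DB. The share of peaks at a gene was 91.8% as reported, 71.9% without a flank, 86.2% with 500 bp, 96.7% with 2000 bp and 89% for protein-coding genes only. The share met in either ein3-1eil-1 ethylene library was 0.928% and became 7.2% at a -log10 q of at least 5. That for either air library was 2.19%, and became 4% at that q, so the order of ethylene and air turned; it was 1.1% with at least 50% of the peak overlapped and 4.47% with gaps of up to 500 bp. Without replicate 1 or 2, the shares ranged from 0.675 to 0.759% in ethylene and from 1.18 to 1.52% in air. The causes of these moves were not tested. Restricting to protein-coding genes, leaving out genes with an air peak in reach and leaving out the peaks above the 90th percentile of implied input were chosen after seeing the data. No paired analysis was possible because each result is a count of peaks or genes per library or table, and the replicate numbers mark nothing shared in the labels. With 1 Col-0 library a treatment, depth and replicate variation limit which peaks count as ethylene-only, and RNA tables without per-library values limit every RNA statement to the authors' calls.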

Other observations

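The KCS genes, which encode ketoacyl-CoA synthases that lengthen very-long-chain fatty acids for waxes and lipids, were picked out after their values were seen. Of 21 KCS genes in the reference table, 6 (28.6%) had an ethylene-only peak, against 4.04% of all protein-coding genes: KCS1 had 4 such peaks, and KCS8, KCS10, KCS16, KCS19 and KCS20 had 2 each. The highest fold enrichment per gene was 3.87 at KCS1, 3.82 at KCS8, 4.54 at KCS10, 4.14 at KCS16, 3.97 at KCS19 and 3.16 at KCS20. In the authors' deposited table of EIN2C-EIN3DB, 5 of the 6 were lower than in Col (KCS1 by log2 -1.47, KCS10 by -1.17, KCS16 by -2.20, KCS19 by -1.07 and KCS20 by -1.31), as were 7 of all 21, against 9.7% of all protein-coding genes. None of the 21 was higher there. In EIN2C-EIN3DBK245N 3 of the 21 were lower and 0 higher, and in EIN2S645A 2 were lower and 1 higher. KCS16 was the only one of the 6 in the other authors' deposited tables, at log2 -2.12 in EIN2C-EIN3DBK245N and -2.65 in EIN2S645A.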
